A study of Mus musculus with 19 samples.

Results

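The levels of 10 Cyp2c genes were followed across 10 mouse liver tumours. Cyp2c29, Cyp2c37, Cyp2c38, Cyp2c39, Cyp2c40, Cyp2c50, Cyp2c54, Cyp2c55, Cyp2c69 and Cyp2c70 were taken by name from a count table of 39179 gene identifiers. They were chosen because Cyp2c39 had been seen to differ between tumour families in these same libraries. Every difference between the RMH4 tumours and the others is therefore given below as a description. The 5 other Cyp2c genes of the table, Cyp2c23, Cyp2c65, Cyp2c66, Cyp2c67 and Cyp2c68, are given beside them for comparison. Of the 10 genes, 9 passed the filter on low counts and only Cyp2c69 did not; of the other 5, Cyp2c23, Cyp2c67 and Cyp2c68 passed.

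The series profiled polyA RNA from male mice carrying a conditional mutant allele of the β-catenin gene, Ctnnb1tm1Mmt (HET), and a conditional MYC transgene, Gt(ROSA)26Sortm1(MYC)Djmy (HOM). Both alleles were switched on by AAV8.TBG.PI.Cre.rBG, a virus that carries Cre under the hepatocyte promoter TBG, at 640000000 GC per mouse. Tumours 04 to 13 are used here, and all 10 carry both alleles and received this dose. Their table headers hold a tag: tumours 04, 05 and 06 are tagged RMH4, tumours 07 and 08 RMH18, and tumours 09 to 13 RMH35. The tags go further down to 5 (04 apart, 05 with 06, 07 with 08, 09 with 10, and 11 with 12 and 13). Tags of this form name single mice elsewhere in the study, so tumours with a shared tag may come from the same animal. P-values between families then rest on fewer animals than tumours and are too small. Tumour-free liver was not analysed here.

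Cytochromes P450 of the 2C subfamily are haem enzymes of the endoplasmic reticulum. They take electrons from P450 reductase and oxidise drugs, steroids, retinoids and polyunsaturated fatty acids, turning arachidonic acid into epoxides and hydroxylated products. In mouse liver their genes are among the abundant P450 genes. The nuclear receptors CAR, PXR and HNF4A are known to control several of them, and the levels of some differ between the sexes.

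Gene counts summed to between 11687034 and 36964427 reads a library. Hepatocyte markers (Alb, Ttr, Apoa1, Apob, Hnf4a, Serpina1a and Tat) summed to between 23397 and 39575 CPM (counts scaled to a library of 1000000) in the 10 tumours, and lymphocyte markers to at most 4.98 CPM. Glul, a gene switched on by β-catenin in hepatocytes, was high in every tumour, with at least 5276 CPM. Rpph1, a small noncoding RNA, reached 40.4, 30.1 and 50.7 CPM in tumours 05, 06 and 07, against no more than 4.26 CPM elsewhere. Blood genes summed to 6055 CPM in tumour 07. In bulk tissue, fewer cells of a type and less RNA per cell cannot be told apart.

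Where the genes lie and how alike they are decides which reads can be told apart. In RefSeq annotation of GRCm38.p6, a patch release of the GRCm38 build that the submitters name, all 15 genes lie on chromosome 19. Cyp2c29 spans chr19:39287044-39330713 on the plus strand. Cyp2c39 spans chr19:39347346-39569568 on the same strand, and Cyp2c38, at chr19:39389556-39463103 on the minus strand, lies inside that RefSeq span. The GENCODE transcript of Cyp2c39 begins beyond the end of Cyp2c38, so in that annotation the 2 genes do not overlap. Reads were counted per gene and library preparation kept the strand, but the strand setting used in counting is not given in the sources used here. Cyp2c55 opens the cluster at chr19:39006940-39042690, and Cyp2c70 closes it at chr19:40153361-40187286. Cyp2c23 lies apart, at chr19:44005022-44029256.

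The coding sequences of Cyp2c39 and Cyp2c38 were 94.2% identical, and those of Cyp2c39 and Cyp2c29 were 89.5% identical, all 3 being 1470 bases long. The first 90 coding bases of the 3 genes are shown because they let a reader see over what length a 36-base read separates Cyp2c39 from its closest copies. They are the canonical GENCODE transcripts, 5′ to 3′, from base 1 at the start codon in the first coding exon, and capitals mark bases that differ from Cyp2c39.

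Cyp2c39: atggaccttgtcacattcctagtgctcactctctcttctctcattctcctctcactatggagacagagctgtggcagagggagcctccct

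Cyp2c29: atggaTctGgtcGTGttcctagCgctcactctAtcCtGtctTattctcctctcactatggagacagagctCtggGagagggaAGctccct

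Cyp2c38: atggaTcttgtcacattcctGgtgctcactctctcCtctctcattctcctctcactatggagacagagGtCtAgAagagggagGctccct

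In this stretch Cyp2c29 differed from Cyp2c39 at 14 bases and Cyp2c38 differed from it at 8. Over the whole coding sequence, the longest run without a difference was 98 bases between Cyp2c39 and Cyp2c38, and 56 bases between Cyp2c29 and Cyp2c39. Each run is longer than a read, so part of the reads from either gene fit both copies.

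How much of each transcript a read could place was measured by cutting it into 36-base words, the read length in the study. Of the Cyp2c39 words, 85.6% occurred in no other gene, against 93.6% for Cyp2c29 and 86.2% for Cyp2c38. All words of Cyp2c70 (100%) and nearly all of Cyp2c55 (97.3%) were unique. Most reads of these 5 genes can be placed. The share was 77.4% for Cyp2c54, 57.8% for Cyp2c37 and 57.5% for Cyp2c50, among which Cyp2c37 and Cyp2c50 were 96.1% identical and Cyp2c54 and Cyp2c50 95.2% identical. It was lowest for Cyp2c69 (37.2%) and Cyp2c40 (26.2%), which belong to a group of near-identical copies with Cyp2c67 and Cyp2c68. Cyp2c40 and Cyp2c68 were 98.1% identical. Counting discarded reads that aligned to more than 1 place, and between 45.4% and 57.9% of all alignments were set aside this way, so the levels of Cyp2c37, Cyp2c40, Cyp2c50, Cyp2c54 and Cyp2c69 are uncertain and leave out such reads.

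**Figure D1:**
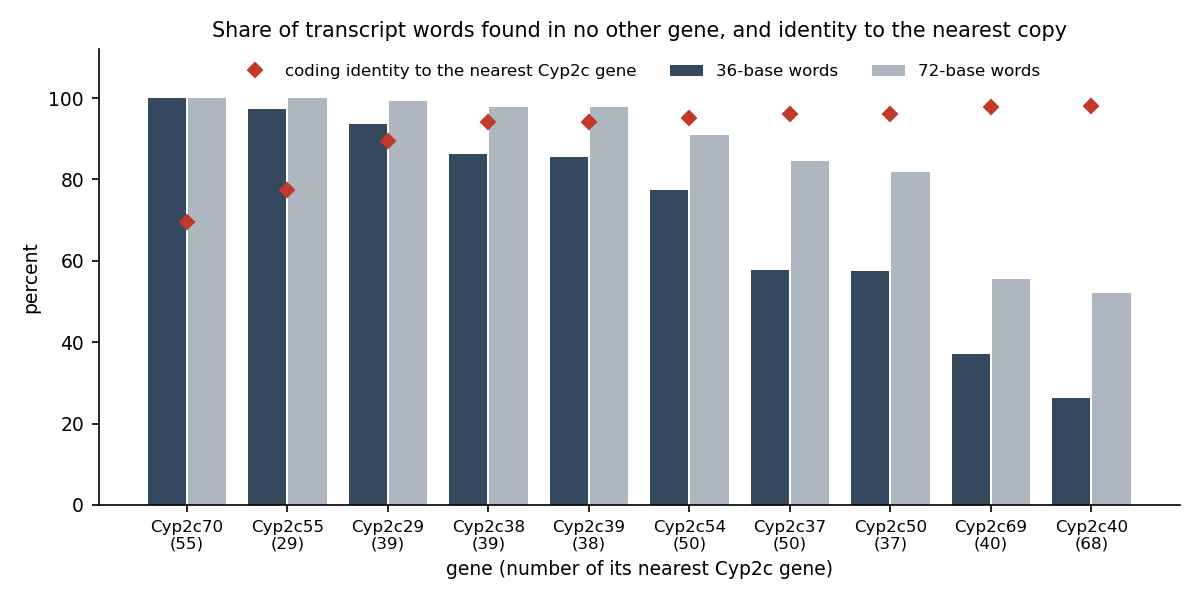
The bars give, for each of the 10 genes, the percent of its transcript's 36-base (dark) and 72-base (light) words found in no other gene, and the diamonds give the percent identity of its coding sequence to the nearest Cyp2c gene, whose number stands in brackets. Cyp2c70, with 100% unique words, had the lowest identity (69.5%), and Cyp2c40, with 26.2% unique 36-base words, the highest (98.1%).

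Cyp2c39, an enzyme known to hydroxylate retinoic acid, was high in every RMH4 tumour and low in every other tumour. Its level was 350 CPM in tumour 04, 579 CPM in tumour 05 and 519 CPM in tumour 06. Tumours 07 and 08, of RMH18, had 19.3 and 4.88 CPM, and the RMH35 tumours ran from 1.87 CPM (tumour 13) over a median of 5.69 CPM to 15.7 CPM (tumour 12). The 2 sets did not overlap, and the RMH4 mean (483 ± 119 CPM, SD, n = 3) was 59.3 times the mean of the other 7 (8.14 ± 6.66 CPM, SD). The lowest level, in tumour 13, rested on 72 counts, and the lowest count was 58, in tumour 10. The SD of its log2 CPM over the 10 tumours was 3.18, against a median of 0.39 over the 15416 genes tested, and only 4 genes had a larger one. Among the 9 genes that passed the filter, Cyp2c39 was the single member whose RMH4 tumours all lay above the other 7. Of all genes tested, 2.52% had this pattern. These values chose the gene and are not evidence about it.

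**Figure D2:**
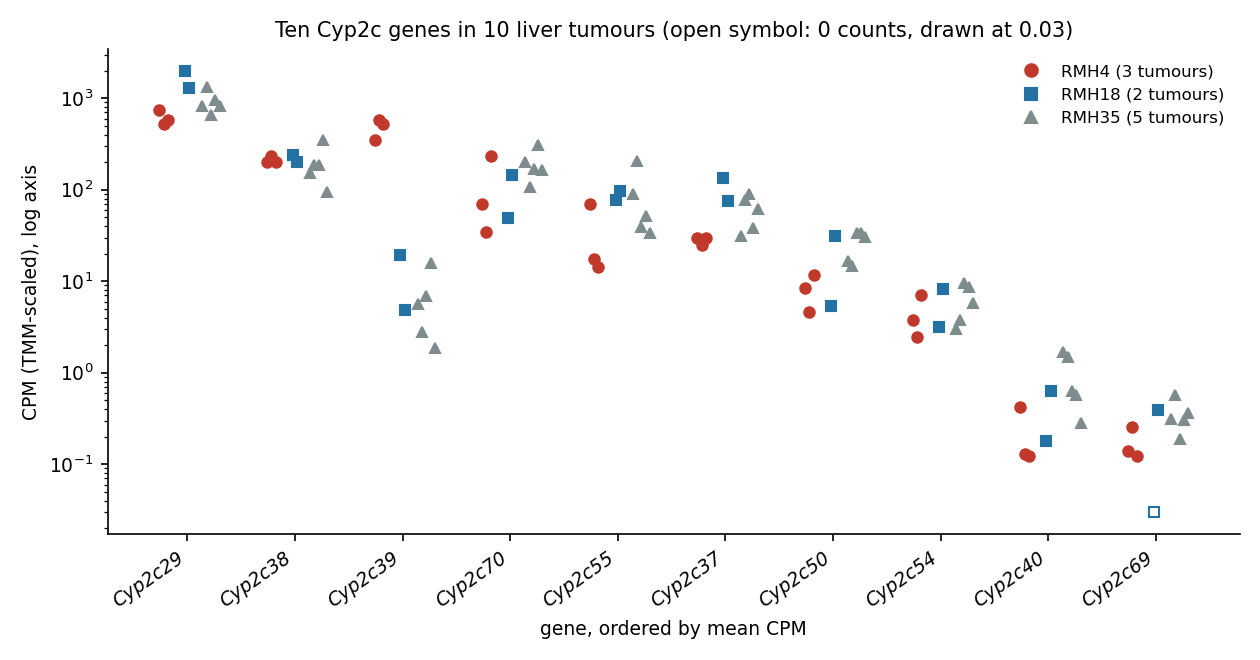
Each symbol is the level of a gene in a tumour, in TMM-scaled CPM on a log axis, with RMH4 tumours as red circles, RMH18 as blue squares and RMH35 as grey triangles, and an open symbol for 0 counts. In the Cyp2c39 column the 3 red circles lie between 350 and 579 CPM and the other 7 symbols between 1.87 and 19.3 CPM, while Cyp2c38 overlaps between families.

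Cyp2c38, the closest copy of Cyp2c39 and an arachidonic acid epoxygenase, did not share this pattern. It measured 201, 235 and 200 CPM in tumours 04, 05 and 06, and 239 and 199 CPM in tumours 07 and 08. Its RMH35 values went from 94.4 CPM in tumour 13 over a median of 185 CPM to 349 CPM in tumour 12. The families overlapped, and the RMH4 mean was 1.06 times that of the other 7. Cyp2c39 stood at 174%, 247% and 259% of the Cyp2c38 level in tumours 04, 05 and 06, and at 1.51% to 8.07% of it in the other 7. Outside RMH4 the small Cyp2c39 signal did not keep a fixed ratio to Cyp2c38. Of the Cyp2c39 words, 12.2% also occurred in Cyp2c38, and the part of shared reads in the low values was not tested.

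Cyp2c29, a major arachidonic acid epoxygenase of mouse liver, had the highest CPM of the 10 genes in every tumour except tumour 05. There it measured 521 CPM, below Cyp2c39. When levels were divided by exon length, Cyp2c39 stood above Cyp2c29 in tumour 06 as well. Tumours 04 and 06 had 744 and 579 CPM, and tumours 07 and 08 had 1968 and 1284 CPM. The RMH35 tumours had between 653 CPM (tumour 11) and 1309 CPM (tumour 10), with a median of 823 CPM. The 2 RMH18 values included the highest, but tumour 10 of RMH35 lay above tumour 08. RMH4 averaged 615 ± 116 CPM (SD, n = 3) against 1115 ± 449 CPM in the other 7, with tumour 04 above tumour 11.

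The sum of Cyp2c29 and Cyp2c39 was 1095, 1100 and 1098 CPM in tumours 04, 05 and 06. In the other 7 tumours this sum ranged from 660 to 1987 CPM around a mean of 1123 CPM. The RMH4 sums thus lay inside the range of the others, while their make-up differed. Of the summed level of all 10 genes, Cyp2c39 made up 23.7%, 40.8% and 32.5% in tumours 04, 05 and 06 and between 0.146% and 0.891% elsewhere. Cyp2c29 made up between 36.2% and 50.3% in RMH4 and more in each of the other 7 (at most 78.8%). The 10 genes together reached 1622 ± 398 CPM (SD, n = 10), with the lowest sum in tumour 11 (1185 CPM) and the highest in tumour 07 (2496 CPM). RMH4 sums, at 1478, 1420 and 1597 CPM, lay between those values. Without Cyp2c39 the sums were between 840 and 1128 CPM in RMH4 and between 1178 and 2477 CPM elsewhere, and these ranges did not overlap. Among single genes tested, 2.7% had their RMH4 tumours below all others. Leaving out the gene that was chosen for its high RMH4 level favours such a gap. Cyp2c29, the largest part of these sums, overlapped by itself.

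**Figure D3:**
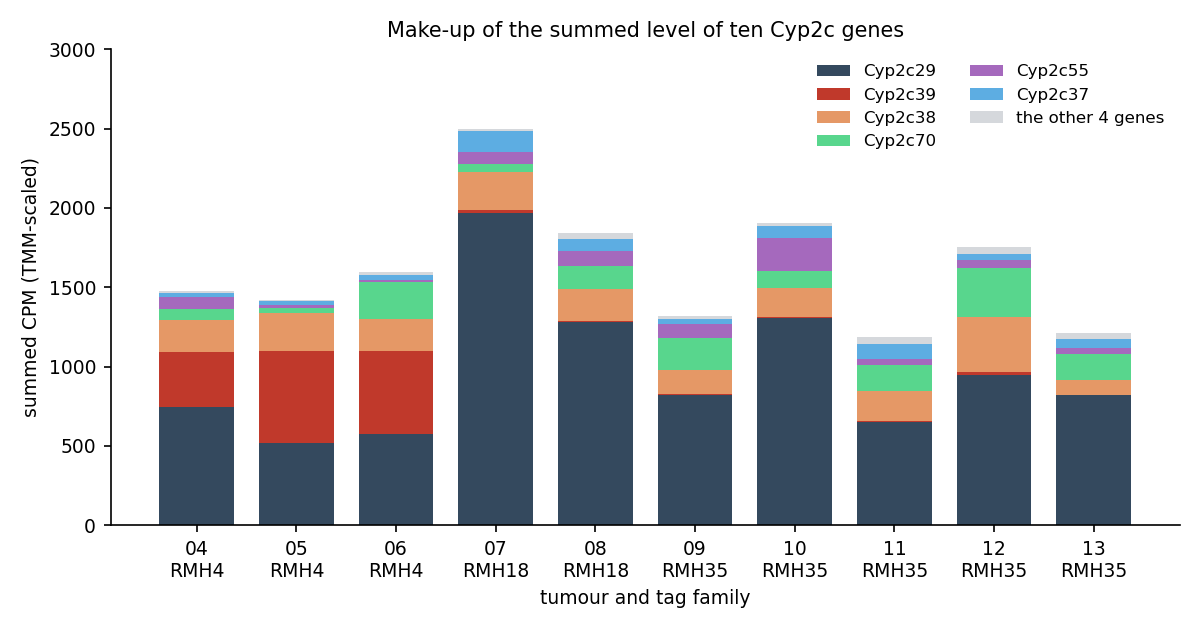
Stacked bars give the summed TMM-scaled CPM of the 10 genes in each tumour, split by gene, with the tag family under the tumour number. The red Cyp2c39 part makes up 23.7% to 40.8% of the bar in tumours 04 to 06 and is barely visible in the other 7, and the tallest bar is tumour 07 (2496 CPM).

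Cyp2c37, Cyp2c50 and Cyp2c54, neighbouring genes whose enzymes oxidise arachidonic acid, had lower means in RMH4 than in the other 7 tumours. Levels of Cyp2c37 were 29.5, 24.8 and 30.0 CPM in tumours 04, 05 and 06, then 136 and 74.7 CPM in tumours 07 and 08, and between 31.1 and 89.6 CPM in RMH35, with a median of 60.8 CPM. All 3 RMH4 values lay below the other 7, though tumour 06 (30.0 CPM) was close to tumour 09 (31.1 CPM). Of all genes tested, 2.7% had their RMH4 tumours below all others. Cyp2c37 was the only tested member to do so, and the other 7 averaged 2.58 times the RMH4 mean.

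Cyp2c50 measured 8.44, 4.61 and 11.7 CPM in RMH4, 5.43 and 31.5 CPM in RMH18, and between 14.7 and 34.0 CPM in RMH35. Tumour 07 fell among the RMH4 values, so the sets overlapped. Cyp2c54 was lower than either, at 3.77, 2.43 and 7.12 CPM in RMH4, 3.17 and 8.32 CPM in RMH18 and between 3.03 and 9.64 CPM in RMH35. Tumour 05 lay below all tumours outside RMH4, and tumours 04 and 06 lay among them. The ratio of Cyp2c37 to Cyp2c50 was 25.0 in tumour 07 and between 1.11 and 5.38 in the other 9. These 3 genes thus did not move as a block, although their sequences are close. Tumour 07 also had the highest blood genes and Rpph1, and their part in its ratio was not tested.

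Cyp2c55, which oxidises arachidonic acid and is induced by ligands of CAR and PXR, split the RMH4 tumours. Tumour 04 had 70.5 CPM, while tumours 05 and 06, which share a tag, had 17.7 and 14.2 CPM. RMH18 had 76.4 and 96.7 CPM. RMH35 ran from 33.4 CPM (tumour 13) over a median of 51.1 CPM to 207 CPM (tumour 10), the highest level of this gene. Tumours 05 and 06 were the lowest of the 10.

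Cyp2c70, which in mice makes muricholic acids from chenodeoxycholic acid, spread as widely within a tag as between families. Tumours 05 and 06, of the same tag, had 34.6 and 235 CPM, the lowest level of the 10 and the second highest. Tumour 04 had 69.5 CPM, and the RMH18 tumours had 49.2 and 144 CPM. The RMH35 values ran from 106 CPM (tumour 10) over a median of 167 CPM to 311 CPM (tumour 12). The log2 gap between tumours 05 and 06 was 2.76 for Cyp2c70, against 0.16 for Cyp2c39 and 0.15 for Cyp2c29. For Cyp2c39 and Cyp2c29 the log2 ranges were wider in the other shared tags. That of Cyp2c39 was 1.96 within the RMH18 tag, 1.00 within the smaller RMH35 tag and 3.00 within the larger. In the same order it was 0.62, 0.67 and 0.54 for Cyp2c29, and 1.55, 0.90 and 0.92 for Cyp2c70. Closeness within a tag therefore differed between tags as well as between genes.

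Cyp2c40, a gene better known from the intestine, and Cyp2c69, a close copy of it, were near the limit of detection. Cyp2c40 had between 2 and 31 counts a library and at most 1.67 CPM (tumour 09). Cyp2c69 had between 0 and 14 counts and at most 0.578 CPM (tumour 10), with 0 counts in tumour 07. A count of 0 there allows up to 3 counts, and 3 counts correspond to between 0.0812 and 0.257 CPM a library for counting error alone. With a minority of their words unique, these low levels do not show that the genes were silent.

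Of the other Cyp2c genes, Cyp2c68 had RMH4 levels of 21.3, 9.35 and 12.5 CPM, below the 35.9 to 92.5 CPM of the other 7. Cyp2c67 ran from 7.56 to 36.4 CPM in RMH4 and from 21.3 to 262 CPM elsewhere, with tumour 12 the highest and tumour 13 the lowest of the others. Cyp2c23, an epoxygenase gene outside the main cluster, ran from 8.33 to 51.4 CPM in RMH4 and from 29.2 to 146 CPM elsewhere. Both overlapped between the sets. Cyp2c65 had at most 3 counts in any library and Cyp2c66 at most 1.

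To compare genes, levels were divided by the length of their merged exons. Cyp2c29 led with 290 ± 133 CPM per kb (SD, n = 10), and its level per kb was above that of Cyp2c38 (69.4 ± 22.3 CPM per kb) in 10 of 10 tumours. Cyp2c38, Cyp2c70 (53.8 ± 31.6) and Cyp2c39 (52.7 ± 82.7) followed, but each of these neighbours changed order in 3 of 10 tumours and they do not differ beyond their spread. The place of Cyp2c39 rests on the RMH4 tumours: per kb it stood above Cyp2c37 and Cyp2c55 in these 3 and below both in each of the other 7. Cyp2c55 (27.9 ± 22.5 CPM per kb) and Cyp2c37 (mean 29.7) changed order in 5 of 10. Below them, Cyp2c50 (5.19 ± 3.27 CPM per kb) stood above Cyp2c54 (1.37 ± 0.66), and Cyp2c54 above Cyp2c40 (0.19 ± 0.17), in 10 of 10 tumours. Cyp2c40 and Cyp2c69 (0.14 ± 0.08) changed order in 4 of 10. Dividing by unique 36-base words instead moved Cyp2c70 above Cyp2c38, at 87.9 and 82.6 CPM per 1000 words, and left Cyp2c29 first.

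In the edgeR fit of the 3 families, Cyp2c39 was higher in RMH4 than in the mean of RMH18 and RMH35 by 5.77 ± 0.70 (SE) on the log2 scale. Of the 9 tested genes, 7 had a lower fitted level in RMH4. The median log2 difference of the 9 was -0.99, against -0.0026 over all 15416 genes. The values were -0.99 ± 0.26 (SE) for Cyp2c29, -1.49 ± 0.36 for Cyp2c37, -1.41 ± 0.54 for Cyp2c50, -1.32 ± 0.69 for Cyp2c55, -0.43 ± 0.49 for Cyp2c54 and -0.26 ± 0.57 for Cyp2c70. Cyp2c40 was at -1.49 ± 0.78, but with 6, 2 and 2 counts in RMH4 it passed the filter only through tumours outside RMH4, and it dropped out when the filter took the tumours as 1 group. Its place among the 7 lower genes was therefore favoured by the filter. Cyp2c38 was at 0.05 ± 0.33. Several of these values rest on single tumours or on the fit: Cyp2c50 was at -0.52 without tumour 08 and -0.45 with log2 Rpph1 in the fit, Cyp2c55 at -2.45 without tumour 04, and Cyp2c40 at -2.30 without tumour 04 and -0.59 with log2 Rpph1. Cyp2c54 was at 0.01 without tumour 08. Cyp2c70 was at -1.38 without tumour 06, but at 0.37 with log2 Rpph1 in the fit, 0.23 without tumour 08 and 0.17 without tumour 05. This contrast helped to choose the genes, so no test of it is given for them. Rpph1 was high in tumours 05 and 06 of RMH4 and in tumour 07 of RMH18, and low in tumour 04 of RMH4. With log2 Rpph1 in the fit, the Cyp2c39 difference was 5.39 ± 0.76.

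The contrast of RMH18 (n = 2) with RMH35 (n = 5) compares levels outside RMH4, although the RMH4 tumours enter the filter and the estimate of spread of the same fit. By edgeR's quasi-likelihood test with Benjamini-Hochberg adjustment it called 0 of the 9 genes and 0.013% of all genes (the muscarinic receptor gene Chrm2 and the histone gene H2bc1, both higher in RMH18). Leaving out each tumour gave between 0 and 10 calls over all genes, with 10 without tumour 09 and 0 without tumour 05, 07, 11 or 13. At an unadjusted p under 0.05 it had 1 of the 9 genes, Cyp2c29, against 5.97% of all genes. DESeq2 called 0 of these genes and 0.46% of all genes. Cyp2c29 was higher in RMH18 by 0.84 ± 0.28 (SE) on the log2 scale (edgeR adjusted p = 0.707, unadjusted p = 0.0123). Cyp2c37 had a difference of 0.83 ± 0.38 (adjusted p = 0.829) and Cyp2c39 one of 0.86 ± 0.71 (adjusted p = 0.904), which was -0.44 without tumour 07. Without that tumour Cyp2c29 was at 0.49 and Cyp2c37 at 0.33. Cyp2c70 was at -0.97 ± 0.70 (adjusted p = 0.875). The remaining 5 lay between -1.09 ± 0.84 (Cyp2c40) and 0.18 ± 0.38 (Cyp2c38). Cyp2c50, at -0.47 ± 0.60, was at 0.28 without tumour 07 and -2.26 without tumour 08, so its direction rests on which RMH18 tumour is kept. A difference that misses the threshold here does not show equal levels, since 7 tumours from few tags give SEs between 0.28 and 0.84.

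**Figure D4:**
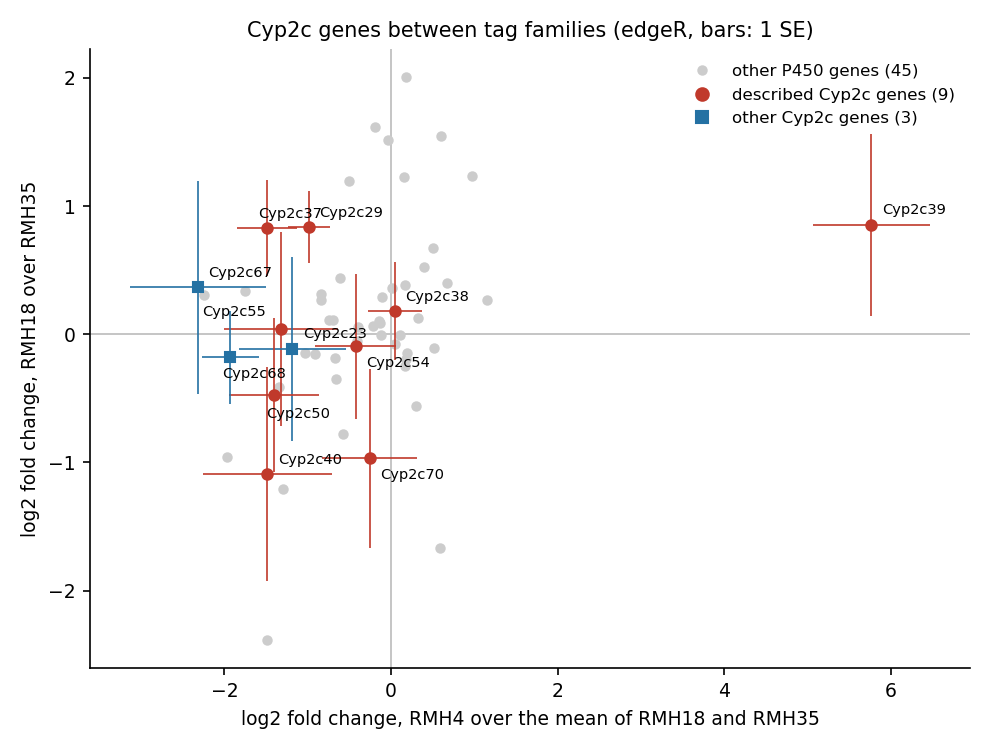
The x axis gives the log2 fold change of RMH4 over the mean of RMH18 and RMH35, and the y axis that of RMH18 over RMH35, from edgeR, with bars of 1 SE. Red circles are the 9 tested genes, blue squares Cyp2c23, Cyp2c67 and Cyp2c68, and grey points 45 other P450 genes with at least 0.2 CPM in every tumour. Cyp2c39 stands alone at 5.77 on the x axis, most other Cyp2c genes lie left of 0, and on the y axis all 9 lie between -1.09 and 0.86.

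Log2 levels of the members were compared with each other over the 10 tumours as a description, since tumours share tags and these values share library scaling. Cyp2c50 went with Cyp2c70 (Pearson r = 0.82, n = 10) and with its close copy Cyp2c54 (r = 0.82), and Cyp2c29 with Cyp2c37 (r = 0.75). The r of Cyp2c39 was 0.42 with its closest copy Cyp2c38, and with the other 7 tested members it lay between -0.68 (Cyp2c50) and -0.28 (Cyp2c54), with -0.54 for Cyp2c29. Cyp2c39 falls into separate high and low tumours, so these values describe that split and not a graded relation.

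The 10 genes whose log2 CPM was most like that of Cyp2c39 over the 10 tumours were Camk2b (r = 0.94), Dpep2 (0.93), Il17rb (0.91), Spart (0.91), Plod3 (0.91), Col17a1 (0.90), Ostf1 (0.90), Litaf (0.90), Gm13882 (0.89) and Nudcd1 (0.89). Leaving out each tumour in turn kept the r of these genes between 0.85 and 0.96. Of these, 9 had RMH4 tumours above all others, and only Gm13882 overlapped. Of all genes tested, 2.52% had this pattern. Picking genes for likeness to Cyp2c39 favours it, so the count is not evidence about these genes. For Nudcd1 the gap was small, with 26.7 CPM the lowest in RMH4 and 26.5 CPM the highest elsewhere. Il17rb, an interleukin receptor gene, was at 50.6 to 84.7 CPM in RMH4 and 14.7 to 26.0 CPM elsewhere, and Litaf, a lysosomal membrane protein gene, at 226 to 269 CPM and 108 to 161 CPM. Col17a1 had a fitted log2 difference of 5.33 but at most 0.907 CPM. That of the other 9 lay between 0.30 (Nudcd1) and 2.92 (Dpep2), below the 5.77 of Cyp2c39. Outside RMH4, Col17a1 had at most 0.134 CPM and Dpep2 at most 0.433 CPM. Both passed the filter only through RMH4 tumours, which favoured their differences. Col17a1 and Ostf1 lie on chromosome 19, as does Cyp2c39. Such genes were picked from 15416 for their likeness over few tumours, and a high r of this kind describes these tumours only.

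**Figure D5:**
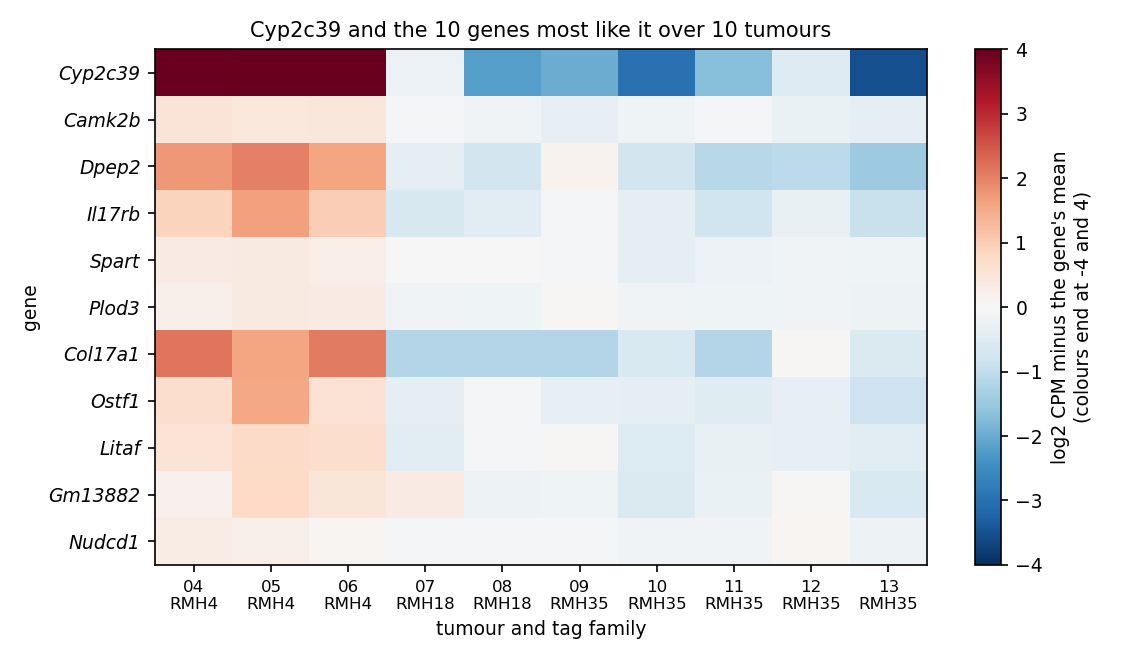
Colours give the log2 CPM of each gene in each tumour minus the gene's mean over the 10 tumours, for Cyp2c39 (top row) and the 10 genes most like it, with tumours and tag families along the x axis and colours ending at -4 and 4. The first 3 columns (RMH4) are red, deep or pale, in all 11 rows, with Cyp2c39 beyond the end of the scale in tumours 05 and 06 and just inside it in tumour 04 (3.95), and most of the other 7 columns are blue or near white.

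The 5 genes most like the mean log2 CPM of Cyp2c29, Cyp2c37, Cyp2c50, Cyp2c54 and Cyp2c70 were Gm5529 (r = 0.96), Fchsd2 (0.95), Lrrk1 (0.95), Gm5560 (0.95) and Inhbc (0.94). Inhbc, a liver gene for an activin subunit, ran from 9.73 to 22.6 CPM in RMH4 and from 27.9 to 76.0 CPM elsewhere. Lrrk1 did not overlap between the sets either, while Gm5529, Fchsd2 and Gm5560 did.

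The enzymes and regulators around the Cyp2c proteins were taken as lists. In RMH4 against the other families edgeR called 0 of 15416 genes, with 2281 at an unadjusted p under 0.05 (14.8%), and DESeq2 called 3.46% of the genes it adjusted. Leaving out a tumour raised the edgeR count to 158 without tumour 04, 48 without tumour 09 and 1 without tumour 12. Among 6 electron transfer genes, which include the P450 reductase gene Por and the cytochrome b5 genes, 5 were lower in RMH4 with a median log2 difference of -0.22, and DESeq2 called only Cyb5b, lower. Of 12 genes for epoxide hydrolases and other fatty acid P450s, 8 were lower with a median of -0.12 and none was called. Of 10 retinoid genes, the pathway in which Cyp2c39 acts, 7 were lower with a median of -0.19. DESeq2 called Aldh1a1, which makes retinoic acid, and the retinol dehydrogenase gene Rdh16, both lower. All 6 bile acid synthesis genes were lower, with a median of -0.53, and DESeq2 called Cyp7a1, the rate-limiting enzyme, at 107 to 172 CPM in RMH4 and 251 to 699 CPM elsewhere.

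Of 20 tested genes for receptors and transcription factors that act on Cyp2c genes or the sex-biased liver programme, 12 were higher in RMH4 with a median log2 difference of 0.20. DESeq2 called the forkhead factor gene Foxa3, higher, at 87.3 to 116 CPM against 49.4 to 81.2 CPM. Of 12 tested CAR and PXR targets, 6 were higher and 6 lower (median -0.01), and DESeq2 called Cyp3a13 and Gadd45b, higher, and Abcc2, lower. The 10 tested female-biased genes had a median of -0.06 with Hao2 called lower. The 14 tested male-biased genes had a median of -0.42, with Slco1a1 and Hsd3b5 called lower. Hsd3b5 had 0 CPM in all 3 RMH4 tumours and between 0.467 and 2.03 CPM elsewhere, so it passed the filter only through tumours outside RMH4, which favoured its call. Of 9 pericentral genes, which β-catenin keeps high around the central vein, 8 were lower (median -0.43), and Rgn was called lower by DESeq2. These DESeq2 calls fell away in edgeR, where the smallest adjusted p of these 9 lists was 0.12, that of Hsd3b5.

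The other P450 genes gave the nearest background. Of 53 that passed the filter, 32 were lower in RMH4, with a median log2 difference of -0.20, against 7 of the 9 Cyp2c genes, where the median of the 9 was -0.99. DESeq2 called Cyp3a13 higher and Cyp7a1 and Cyp2a22 lower, the last at 0.704 to 1.16 CPM in RMH4 and 2.08 to 12.4 CPM elsewhere. The median SD of log2 CPM was 0.81 for these P450 genes and 1.02 for the 9 Cyp2c genes. Between RMH18 and RMH35 edgeR called 0 of the 53. At an unadjusted p under 0.05 it had 8 of them (15.1%), against 5.97% of all genes. DESeq2 called Cyp4a31 and Cyp4b1, both higher in RMH18, against 0.46% of all genes. EdgeR called no gene of the other 9 lists between RMH18 and RMH35, and DESeq2 called none. Of their 99 tested entries (94 genes, as 5 stand in 2 lists), 15 (15.2%) had an unadjusted p under 0.05. Their medians lay between -0.12 and 0.38.

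Markers of other cells differed between tumours as well. The 7 macrophage markers summed to between 121 and 335 CPM in RMH4 and between 111 and 266 CPM elsewhere, with a median log2 difference of 0.01. Of the 7, 4 had a higher and 3 a lower fitted level in RMH4. Cd68 lay above all other tumours in RMH4 (48.7 to 68.6 CPM against 11.5 to 43.6 CPM), and the other 6 overlapped, with Marco at -1.45 on the log2 scale. DESeq2 called Cd68, higher, and edgeR did not. DESeq2 called 3.46% of the genes it adjusted, and 2.52% of all genes tested lay above all other tumours in RMH4. The Kupffer cell genes Clec4f and Cd5l were lowest of the 10 in tumour 05 (0.576 and 2.43 CPM) and highest in tumour 06 (59.5 and 92.1 CPM), which shares its tag. Endothelial markers summed to 141 to 168 CPM in RMH4 and 39.1 to 318 CPM elsewhere, and matrix markers to 423 to 891 and 239 to 1744 CPM. Cholangiocyte markers lay between 13.8 and 142 CPM and intestinal markers between 26.8 and 178 CPM in the 10 tumours. Hepatocyte markers were at 23397 to 30723 CPM in RMH4 and 27675 to 39575 CPM elsewhere, so the sets overlapped. Of these 7 genes, 6 had a lower fitted level in RMH4, with a median log2 difference of -0.30. EdgeR called 0 of them, and 2 (Apob and Serpina1a, both lower) had an unadjusted p under 0.05, against 14.8% of all genes. Blood genes summed to 220 to 885 CPM in RMH4 and 102 to 6055 CPM elsewhere. All 5 had a lower fitted level in RMH4, with a median log2 difference of -1.38, and edgeR called 0 of them. Hba-a2 lay below all other tumours in RMH4 (0.128 to 0.419 CPM against 4.80 to 253 CPM), as did 2.7% of all genes tested. Its level is uncertain because Hba-a1 is a near-identical copy. Hba-a2 passed the filter only through tumours outside RMH4, which favoured its place among the lower genes. Fitted levels were higher in RMH18 than in RMH35 for 6 of 6 endothelial, 5 of 5 blood and 6 of 7 matrix markers. Their median log2 differences were 1.36, 2.68 and 0.85. The same held for 4 of 7 hepatocyte, 3 of 7 macrophage, 2 of 5 lymphocyte, 2 of 5 cholangiocyte and 1 of 3 intestinal markers tested. EdgeR called 0 of these markers between RMH18 and RMH35. The part of these differences in the levels of the Cyp2c genes was not tested.

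Promoters of the members were read from RefSeq (GRCm38.p6), from 250 bases before to 50 after each start. Of the 10 genes, 9 matched, with 10 windows, since Cyp2c39 has 2 starts; Cyp2c54 had no window. The window at the second Cyp2c39 start, from which the GENCODE transcript begins, is shown with those of Cyp2c29 and Cyp2c38, because Cyp2c39 and its 2 close copies lie side by side. Sequences run 5′ to 3′ in the direction of the gene, and capitals mark matches to the motifs searched.

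Cyp2c39, chr19:39510572-39510871, plus strand: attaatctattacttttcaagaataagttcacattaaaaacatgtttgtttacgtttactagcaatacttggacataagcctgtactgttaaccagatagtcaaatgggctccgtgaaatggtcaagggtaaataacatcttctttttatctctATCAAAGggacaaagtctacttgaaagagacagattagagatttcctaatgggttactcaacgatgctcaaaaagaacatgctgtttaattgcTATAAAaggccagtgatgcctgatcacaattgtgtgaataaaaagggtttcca

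Cyp2c29, chr19:39286835-39287134, plus strand: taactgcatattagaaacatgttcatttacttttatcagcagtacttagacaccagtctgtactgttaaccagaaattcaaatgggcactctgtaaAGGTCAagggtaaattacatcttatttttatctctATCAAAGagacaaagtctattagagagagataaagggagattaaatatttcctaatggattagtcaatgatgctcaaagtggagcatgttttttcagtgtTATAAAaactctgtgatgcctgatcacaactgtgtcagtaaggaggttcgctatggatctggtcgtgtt

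Cyp2c38, chr19:39463026-39463325, minus strand: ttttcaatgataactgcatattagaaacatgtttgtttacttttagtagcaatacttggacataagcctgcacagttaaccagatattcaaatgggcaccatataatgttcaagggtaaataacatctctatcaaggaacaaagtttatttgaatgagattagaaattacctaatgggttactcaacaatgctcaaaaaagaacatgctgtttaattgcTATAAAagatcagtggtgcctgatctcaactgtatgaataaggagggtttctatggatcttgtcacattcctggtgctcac

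The second Cyp2c39 window was 72.6% identical to that of Cyp2c38 and 69.0% identical to that of Cyp2c29. All 3 hold the letters TATAAA of a TATA box, which 7 of the 10 member windows and 13.62% of all 32851 windows hold on either strand. The letters begin at base -3 relative to the start in the second Cyp2c39 window, -19 in Cyp2c29 and -31 in Cyp2c38. In Cyp2c40 and Cyp2c69 they lie after the start, and in Cyp2c70 on the opposite strand. The TCF motif, CTTTGAT, the site of the partners of β-catenin, stands on the opposite strand in the windows of Cyp2c39 (both) and Cyp2c29 and is missing from that of Cyp2c38. It occurs in 3.73% of all windows. AGGTCA, the core that many nuclear receptors bind, was in 3 member windows (16.26% of all), those of Cyp2c29, Cyp2c70 and the first Cyp2c39 start. CAAAGTCCA, an HNF4 motif, was in those of Cyp2c40, Cyp2c69 and Cyp2c70 (0.47% of all). GTTAAT, the core of an HNF1 site, was in the windows of Cyp2c40 and Cyp2c69 (7.1% of all), and TTGCNNCAA, a C/EBP motif, in those of Cyp2c37 and Cyp2c50 (2.08% of all). The STAT motif TTCNNNGAA (8.3% of all) and the E-box CACGTG (7.15% of all) were in none of the 10. These are matches of letters in short windows.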

How the data were processed

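Raw read counts per gene were deposited by the authors as a single table. TruSeq stranded mRNA libraries were sequenced as paired 36-base reads, and per the labels the submitters' processing notes name TopHat2, HTSeq and GRCm38; versions are not given in the sources used here. The last 5 lines of the table, which name no gene, were left out. Columns were matched to samples by the tumour number in their names, and 9 of the 19 columns that matched no single sample were not used. Library chemistry and alignment were the authors'; everything below was computed from their counts.

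Symbols and exon lengths came from GENCODE M39 (GRCm39) by identifier (34199 of 39179 matched), word shares and coding identities from the same transcripts, positions and promoters from RefSeq GRCm38.p6. CPM used TMM factors (0.946 to 1.142). EdgeR 4.0.16 quasi-likelihood tests were fitted to the 15416 genes that passed filterByExpr, with the 3 families as groups and a threshold of 0.05 on the adjusted p. DESeq2 1.42.0, R 4.3.3 and Python 3.11.15 were also used. On simulated counts the edgeR script was tested and recovered most of the planted changes. Log2 levels used a prior count of 2. No 2 libraries agreed within sampling noise. Named genes were the 10 members, all Cyp2c genes, list genes called in a family contrast, and the genes most like Cyp2c39 (10) or the mean of 5 members (5). Chrm2, H2bc1, Cd68, Marco, Clec4f, Cd5l, Apob, Serpina1a, Hba-a2 and the list genes that only DESeq2 called were named after their values were seen. The members and lists were chosen with earlier results of these data known. Nothing in the labels says that tumours came from separate mice, so p-values measure the spread between these tumours.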

Additional observations from a re-analysis of the deposited data

How the results depend on the processing

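Members' levels, the sum of the 10 genes (1614 CPM by library size alone and 1623 CPM by DESeq2 size factors, 1524 to 1670 CPM leaving out each tumour) and the direction of Cyp2c39 in RMH4 (5.39 to 6.40 on the log2 scale over 16 alternatives) kept their size. The count of genes called between RMH4 and the other families was 0, but 12 with no filter, 488 with DESeq2 and between 0 and 158 leaving out each tumour (158 without tumour 04, 48 without tumour 09). Between RMH18 and RMH35 it was 2, but 4 with no filter, 69 with DESeq2, 0 with a filter over all tumours, with tags summed or with Rpph1 as a covariate, and 0 to 10 leaving out each tumour (10 without tumour 09). The causes were not tested. In RMH18 against RMH35, 4 of the 9 genes changed sign under at least 1 of the alternatives: Cyp2c39 (-0.44 to 1.54), Cyp2c50 (-2.26 to 0.28), Cyp2c54 (-0.97 to 0.42) and Cyp2c55 (-0.16 to 0.76). Cyp2c29 (0.49 to 1.10), Cyp2c37 (0.33 to 1.19), Cyp2c38 (0.01 to 0.51), Cyp2c40 (-2.31 to -0.55) and Cyp2c70 (-1.95 to -0.40) kept their sign. In RMH4 against the others Cyp2c70 ranged from -1.38 to 0.37, Cyp2c54 from -0.95 to 0.01 and Cyp2c38 from -0.05 to 0.21, so their directions are not fixed. Cyp2c29 (-1.18 to -0.82), Cyp2c37 (-1.75 to -1.25), Cyp2c50 (-1.79 to -0.45), Cyp2c55 (-2.45 to -0.95) and Cyp2c40 (-2.30 to -0.59) kept theirs, the last 3 over a wide range. Cyp2c40 had a result in only 15 of the 16 alternatives for RMH18 against RMH35 and 14 for RMH4, since it failed the filter over all tumours and DESeq2 gave it no adjusted p for RMH4. With 72-base words the unique share was 97.7% for Cyp2c39, 84.5% for Cyp2c37 and 52.1% for Cyp2c40. Per kb of coding sequence, Cyp2c39 (102 CPM) stood just above Cyp2c70 (101 CPM). No paired analysis was possible because the 10 tumours belong to a single labelled group. Identity of proteins was replaced by identity of coding bases, chosen after seeing the data, since no protein table was at hand, and so were levels per 1000 unique words and sums without each tumour. Low counts and shared words limit Cyp2c40 and Cyp2c69.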
